A study of Mus musculus with 4 samples.

Results

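FOXL2 peaks in gene deserts were taken as the peaks whose centre lay outside every protein-coding gene, over 100 kb from every protein-coding gene border and over 1 kb from every border of a long noncoding RNA (lncRNA) gene, on chromosomes 1 to 19 and X. Of the 11438 peaks in the list, 282 met this rule, which is 2.47% of the 11434 peaks on these chromosomes (exact 95% binomial interval 2.19 to 2.77%). FOXL2 binding was mapped by ChIP-seq, in which DNA bound by a protein is recovered with an antibody and sequenced. The tissue was XX gonads (ovaries without the mesonephros) of CD1 mouse embryos at E14.5, with no genetic change or treatment named, with 2 FOXL2 ChIP samples and 2 input samples sequenced without antibody. Each came from pooled ovaries, and the labels call the chromatin shared while naming different pools, so how far the ChIP samples are independent is not known. The values are the positions of peaks on build mm10, each 300 bp wide, in 1 list for the ChIP samples. The list holds no height, score or value per sample, so depth is unknown, no peak has a replicate error, no comparison between samples can be made, and the tissue cannot be checked against the level of marker genes. Intervals below cover counting error, treat peaks as independent, and say nothing of the spread between pools of ovaries.

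FOXL2 is a forkhead transcription factor of pregranulosa cells, the supporting cells of the fetal ovary, and is known for keeping ovarian supporting cells from taking on the identity of their testicular counterpart, the Sertoli cell. Transcription factors bind at gene starts and also at distant regulatory elements, many of which lie in long stretches without protein-coding genes. Such gene deserts often surround genes that control development, and an element in a desert can act on a gene that is not its nearest one, so position alone does not name a target.

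A few of the desert peaks lay near microRNA genes, whose products are short RNAs that pair with messenger RNAs through a seed, bases 2 to 8. In the desert between Ubash3b and Gm40514, the peak at chr9:41531654-41531953 lay inside the lncRNA gene Mir100hg, with its centre 0.299 kb from the hairpin of Mir100 (chr9:41531425-41531504, plus strand). The same peak was 4.91 kb from the hairpin of Mirlet7a-2 and 50.1 kb from that of Mir125b-1. The lncRNA gene Mir99ahg held a desert peak at chr16:77499984-77500283 between Usp25 and Cxadr. The hairpins of Mir99a and Mirlet7c-1 lay outside the annotated body of Mir99ahg, 98.8 and 99.5 kb from that peak. The mature sequences (RefSeq, GRCm38.p6) show that these places encode microRNAs with the same seed, given in capitals throughout. Shown are some of the microRNAs whose hairpin had a desert peak within 100 kb, including the pairs with a shared seed among listed sequences. The hairpins of Mirlet7a-2, Mir6363, Mir6380, Mir6368 and Mir6351 also had such a peak, and their sequences are not shown. For Mirlet7a-2 only let-7a-2-3p was listed, so no 5p seed of it was compared with that of let-7c-5p.
miR-100-5p: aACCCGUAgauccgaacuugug
miR-99a-5p: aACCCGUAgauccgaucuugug
miR-125b-5p: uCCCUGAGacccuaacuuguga
let-7c-5p: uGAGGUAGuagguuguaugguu
miR-30a-5p: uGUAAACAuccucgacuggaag
miR-30c-5p: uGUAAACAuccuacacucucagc
miR-29a-3p: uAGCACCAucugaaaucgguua
miR-29b-3p: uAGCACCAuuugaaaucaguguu

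miR-100-5p and miR-99a-5p shared the seed ACCCGUA. miR-30a-5p and miR-30c-5p shared GUAAACA, and their hairpins lay 15.5 and 35.0 kb from a peak at chr1:23256596-23256895 between Ppp1r14bl and Ogfrl1. miR-29a-3p and miR-29b-3p shared AGCACCA, with hairpins 51.0 and 50.7 kb from a peak at chr6:31113613-31113912, which lay inside Lncpint, an lncRNA gene between Klf14 and Mkln1. Of the 179 listed hairpins between the genes that flank a desert, 4 had a desert peak within 20 kb (2.23%) and 13 had one within 100 kb (7.26%). Of all bases between these genes, 1.07% lay within 20 kb and 4.97% within 100 kb of a desert peak. Several of the hairpins share a peak, so these small counts are not independent, and nothing is read from the difference. The hairpins of Mirlet7a-2 and Mir6363 were the other two within 20 kb. A further peak lay inside Mir124-2hg, 1.47 kb from a border of that lncRNA gene, between Ythdf3 and Cypt12.

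The desert peaks lay a median of 181.5 kb from the nearest protein-coding border, with quartiles of 135.4 and 274.3 kb. At the threshold, the peaks just inside lay 100.2 kb from Dazl and 100.7 kb from Actl7b, and those just outside were 99.7 kb and 99.4 kb from a border, between Magi1 and Slc25a26 and between Rtp4 and Sst. Over 200 kb from any gene there were 113 peaks, over 500 kb 23, and over 1000 kb 7. The farthest lay 2187.8 kb from Pik3c3, on chromosome 18 between Celf4 and Pik3c3 and inside the lncRNA gene Gm33860. Next came a peak at chr2:46985880-46986179, 1828.1 kb from Acvr2a, an activin receptor gene, and 1868.6 kb from Zeb2, a zinc finger homeobox gene. Peaks also lay 1393.1 kb from Tenm3 and 1165.7 kb from Tenm4, teneurin adhesion genes, 1250.2 kb from the amylase gene Amy2b, 1137.6 kb from D3Ertd751e in the desert that ends at Pcdh10, and 1001.0 kb from the cadherin gene Cdh20. Of these 7 farthest peaks, 4 lay inside an lncRNA gene, beside 23.0% of all desert peaks. Noncoding genes covered 9.52% of bases past 1000 kb, and nothing is read from so few peaks. The next of the 10 farthest were nearest to Slc10a2 (938.9 kb), Adgrl2 (856.1 kb) and Mms22l (839.2 kb).

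Peaks became sparser with distance from genes. Per Mb of sequence between genes, leaving out the 1 kb around lncRNA borders, there were 1.70 peaks (interval 1.49 to 1.93) at 10 to 20 kb from a gene and 1.0 (0.865 to 1.15) at 50 to 100 kb. Within the deserts, density was 0.815 per Mb (0.664 to 0.990) at 100 to 150 kb and 0.749 (0.582 to 0.95) at 150 to 200 kb. It was 0.399 (0.297 to 0.525) at 200 to 300 kb, 0.265 (0.188 to 0.362) at 300 to 500 kb and 0.110 (0.0628 to 0.178) at 500 to 1000 kb. Past 1000 kb, 7 peaks in 67.6 Mb gave 0.104 per Mb (0.0416 to 0.213), within the interval of the band before it. The intervals of the bands from 100 to 200 kb overlapped each other and neither overlapped those past 200 kb. No p is given for these differences, since no test over samples exists, and unsequenced gaps count as sequence here.

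**Figure D1:**
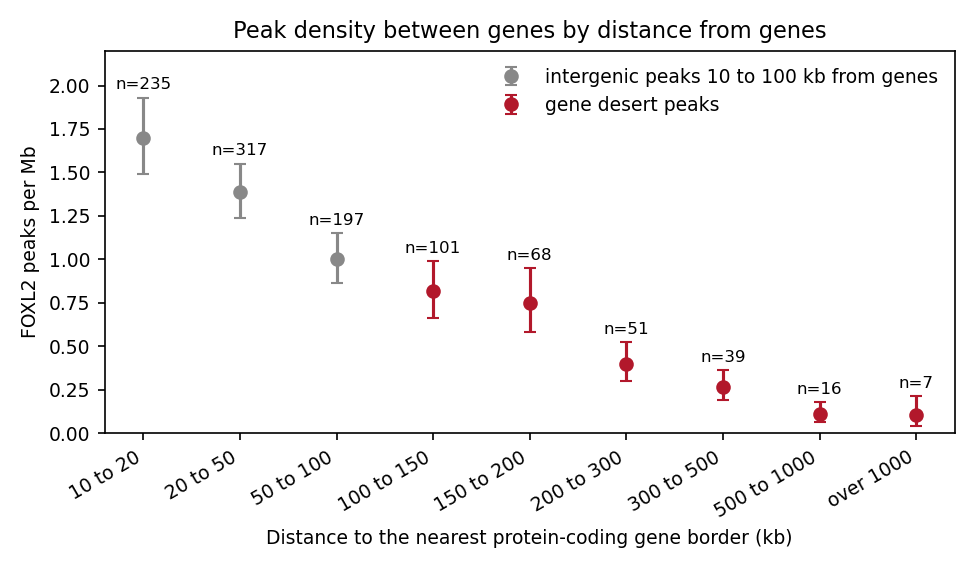
FOXL2 peaks per Mb of sequence between genes (vertical axis) in bands of distance to the nearest protein-coding border in kb (horizontal axis), with exact 95% Poisson intervals and the number of peaks. Density goes from 1.70 per Mb at 10 to 20 kb to 0.104 past 1000 kb, and the 282 desert peaks are in red.

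A desert was defined as a stretch between neighbouring protein-coding genes, or between a gene and the outermost annotated gene of a chromosome end, that holds sequence fulfilling the rule for desert peaks, called its core. There were 1529 deserts with 703 Mb of core, and 221 of them held a desert peak (14.5%). A single peak was found in 182 deserts, 2 in 24, 3 in 10, 4 in 3 and 5 in 2. Occupied deserts had a median length of 680.9 kb from gene to gene, and deserts without a desert peak 387.4 kb. Of deserts with a core up to 100 kb, 4.76% (23 of 483, interval 3.04 to 7.06%) were occupied, and of those with a core over 1000 kb 27.0% (54 of 200, 21.0 to 33.7%). Per Mb of core the order was the opposite, with 1.11 peaks (0.710 to 1.65) in the shortest class and 0.186 (0.145 to 0.236) in the longest. With the distance from genes held at 100 to 200 kb, density was 0.954 per Mb (0.761 to 1.18) in stretches of 200 to 500 kb, 0.700 (0.521 to 0.921) at 500 to 1000 kb and 0.623 (0.429 to 0.874) past 1000 kb. These 3 intervals overlapped.

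**Figure D2:**
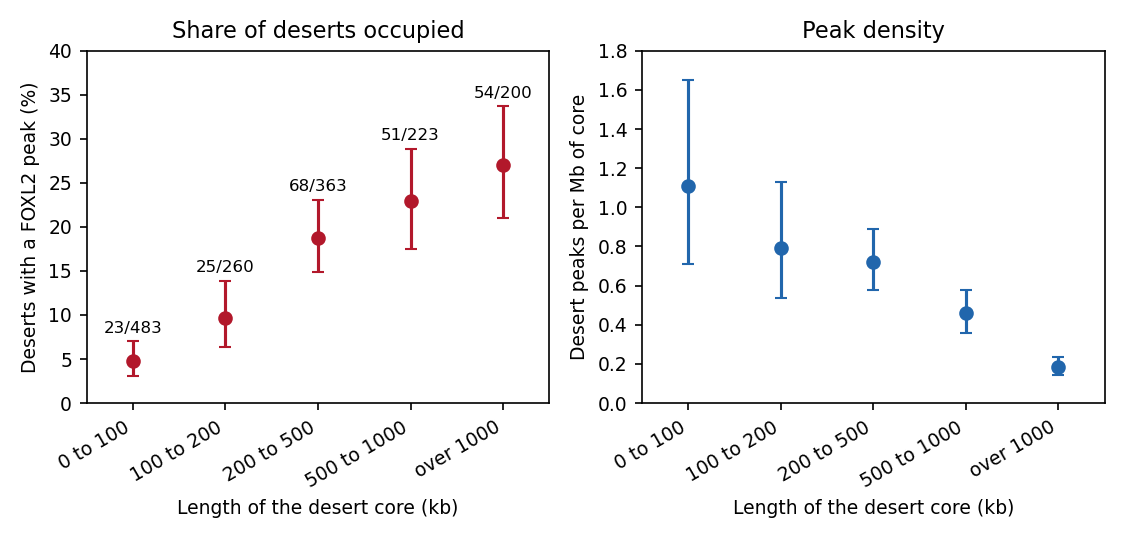
Left, the percentage of deserts with at least 1 desert peak by length of the desert core in kb, with exact 95% binomial intervals and counts. Right, desert peaks per Mb of core with exact 95% Poisson intervals: occupancy goes from 4.76% to 27.0% while density goes from 1.11 to 0.186 per Mb.

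Desert peaks were found on every chromosome analysed. On autosomes they numbered 274, or 0.423 per Mb of core, and ranged from 0.216 per Mb on chromosome 12 (9 peaks) to 0.722 on chromosome 13 (24 peaks). The X chromosome had 8, or 0.145 per Mb, and 4 of these lay in a single gene, Firre, without which the density was 0.0723 per Mb. The X chromosome had 310 peaks of all kinds, of which desert peaks made up 2.58%, beside 2.47% for all chromosomes together.

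Runs of several peaks were counted where neighbouring desert peaks of a desert lay at most 50 kb apart. There were 17 runs with 42 peaks in all, 14.9% of desert peaks (interval 10.9 to 19.6%), and 6 of the runs had 3 or 4 peaks. Among the runs of 3 or 4, the shortest span was that of the run of 3 next to Id2, a helix-loop-helix gene that blocks DNA binding by its partners. Its peaks lay at chr12:25240500-25240799, chr12:25246408-25246707 and chr12:25269343-25269642, which is 144.6, 150.5 and 173.4 kb from Id2 and over 1000 kb from Rnf144a on the other side. The first pair, 5.91 kb apart, was the closest among all desert peaks, and the Id2 start itself had no peak nearer than this run.

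Firre, an X-linked lncRNA gene known for its repeated sequences and its part in nuclear organisation, held a run of 4 peaks within 53.4 kb. The peaks, at chrX:50566470-50566769, chrX:50583830-50584129, chrX:50611916-50612215 and chrX:50619886-50620185, all lay inside the gene (chrX:50563120-50635321). The nearest of them to an end of Firre was 3.50 kb from it. These 4 were the only peaks between the flanking protein-coding genes Olfr1324, an olfactory receptor, and Stk26, a kinase gene.

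The other run of 4 lay between Map3k1, a kinase gene known from disorders of sex development, and Ankrd55. Its desert peaks were spaced 27.8 to 33.3 kb apart over 92.5 kb, from chr13:112088433-112088732 to chr13:112180901-112181200, and lay 107.4 to 199.9 kb from Ankrd55. Between the first and second lay another listed peak, left out by the lncRNA rule, 12.1 kb from the first and 19.3 kb from the second. One more desert peak, inside the lncRNA gene Gm15322, was 205.1 kb from Map3k1, and the whole stretch between the genes held 8 peaks. Map3k1 also had a peak 399 bp from its start, and that start faced the desert.

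Between Gm5148, a predicted gene, and Ankrd50, the 5 desert peaks formed a run of 3 spanning 36.8 kb near Gm5148 and a pair 14.0 kb apart, 202.8 and 216.8 kb from Ankrd50. Between Ccdc171 and Bnc2, the gene of a zinc finger protein, a run of 3 spanned 60.2 kb, and 2 of its peaks lay inside the lncRNA gene Gm33410, 167.5 and 187.4 kb from Bnc2. Between Slc30a10, a manganese transporter gene, and Lyplal1, 3 peaks spanned 84.8 kb from 106.0 to 190.8 kb from Slc30a10, and one more lay 250.9 kb from Lyplal1. The pairs among the closest spacings lay next to Slc30a5 (12.2 kb apart), between Ddit4l and the histone gene H2az1 (15.9 kb), next to Thbs1 (18.7 kb, inside the lncRNA gene Gm13986) and next to Tns1 (21.2 kb, inside Gm29183).

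**Figure D3:**
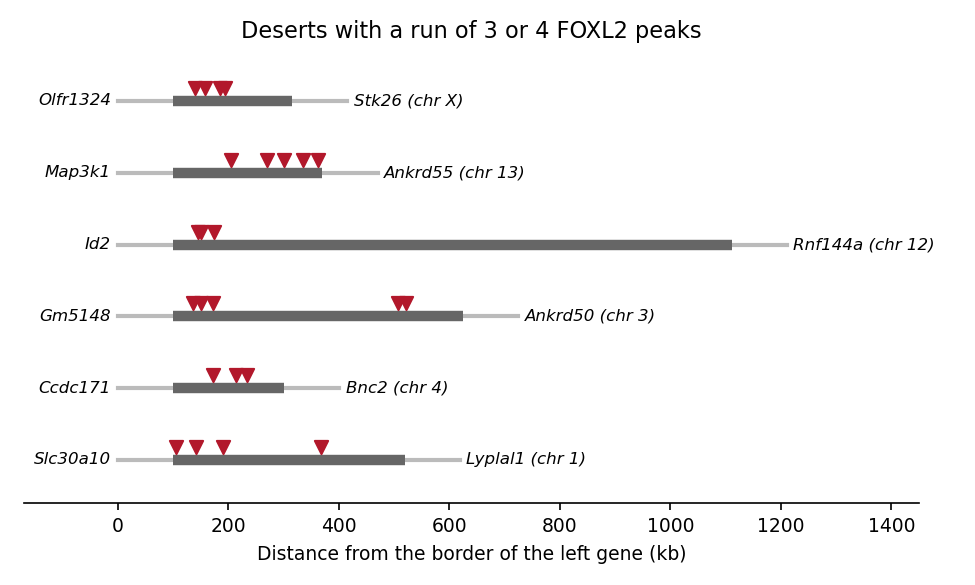
The 6 deserts with a run of at least 3 peaks, drawn to scale in kb from the border of the left gene, with the stretch between genes as a thin line, the part over 100 kb from both genes as a thick line and each desert peak as a triangle. The peaks next to Id2 span 28.8 kb of a desert of 1210.7 kb.

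Other deserts held several peaks, some of them far apart. Between Agtr1b and Tbl1xr1, a corepressor subunit gene, 4 peaks were spread over 1201.5 kb, the nearest 140.1 kb from Tbl1xr1. The deserts on both sides of the oncogene Myc held 5 desert peaks, 2 toward A1bg and 3 toward Gsdmc. One of the latter lay inside the lncRNA gene Pvt1, 116.4 kb from Myc, and the others were 385.4 to 1494.3 kb from Myc. Next to Spry2, which encodes an inhibitor of receptor tyrosine kinase signalling, peaks lay at 124.6 and 159.6 kb, and another in that desert was nearer to Ndfip2 (174.2 kb). Deserts with 3 peaks also lay between Klf4 and Actl7b, Adamts9 and Magi1, Slc30a5 and Pik3r1, Rps24 and Zmiz1, Sall3 and Galr1, and Slc4a3 and Epha4, with spans of 223.7 to 987.7 kb.

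Compared with other peaks away from gene ends, desert peaks stood farther apart. The nearest other peak of any kind was a median of 182 kb away (quartiles 78.8 and 373 kb), against 41.8 kb for 749 peaks between genes at 10 to 100 kb from a protein-coding border, chosen with the same lncRNA rule, and 37.8 kb for 2522 peaks inside genes and over 1 kb from every border. A peak within 50 kb was present for 19.9% of desert peaks (interval 15.4 to 25%), 57.8% (54.2 to 61.4%) and 58.2% (56.2 to 60.1%) in these classes. The rule itself takes desert peaks away from genes, where most peaks of the list lie, so this spacing follows in part from the rule.

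Noncoding genes held a larger share of desert peaks than of desert sequence. Of the 282 peaks, 69 (24.5%, interval 19.6 to 29.9%) lay inside a noncoding gene, 65 of them inside an lncRNA gene, whereas noncoding genes made up 11.6% of the core. This gave 0.845 peaks per Mb (0.658 to 1.07) inside noncoding genes and 0.343 (0.298 to 0.392) outside all genes. At 100 to 150 kb from protein-coding genes 28.7% of peaks lay in noncoding genes, which covered 14.3% of bases, and at 300 to 500 kb the figures were 15.4% and 10.9%. For peaks 10 to 100 kb from genes the share in noncoding genes was 21.9% (19 to 25%), an interval that overlaps that of the desert peaks. The shares of peaks at 10 to 20, 20 to 50 and 50 to 100 kb were 15.3, 23.0 and 27.9%. Noncoding genes covered 13.8, 15.9 and 15.9% of the bases there. Before the lncRNA rule, 316 peaks lay over 100 kb from protein-coding genes, and the 34 it removed (10.8%) lay within 1 kb of an lncRNA border. Besides Firre, the noncoding genes with 2 desert peaks were Gm33410, Gm29183, Gm40056, Lncpint, D030068K23Rik, 6030407O03Rik and Gm13986, of which Gm29183 and 6030407O03Rik overlap and share their peaks. D030068K23Rik lies next to the homeobox gene Zfhx3, and Gm40056 lies between Pfn2 and Tsc22d2.

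The genes at the edges of occupied deserts were then examined for peaks of their own. A peak within 1 kb of a listed transcription start was found for 169 of 329 genes next to an occupied desert (51.4%, interval 45.8 to 56.9%). For genes next to deserts without a desert peak the count was 686 of 1652 (41.5%, 39.1 to 43.9%), for genes next to any desert 43.2%, and for protein-coding genes in all 6710 of 17274 (38.8%). With cores of at least 200 kb the shares were 49.2% (43.0 to 55.5%) and 38.7% (35.3 to 42.2%), so the intervals did not overlap in either comparison. Genes nearest to a desert peak had a share of 51.1% (95 of 186, 43.7 to 58.5%) and genes at the farther edge alone 51.7% (74 of 143, 43.2 to 60.2%), with intervals that overlapped almost in full. Peaks outside the genes but within 100 kb of an edge were present in 35.7% of occupied deserts (29.4 to 42.4%) and 19.5% of the others (17.4 to 21.7%). The border nearest to a desert peak was a gene start in 123 of 218 cases (56.4%, 49.6 to 63.1%), against 53.0% (50.9 to 55.0%) of all desert borders, and these intervals overlapped. Starts came from a RefSeq table that does not list every gene.

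**Figure D4:**
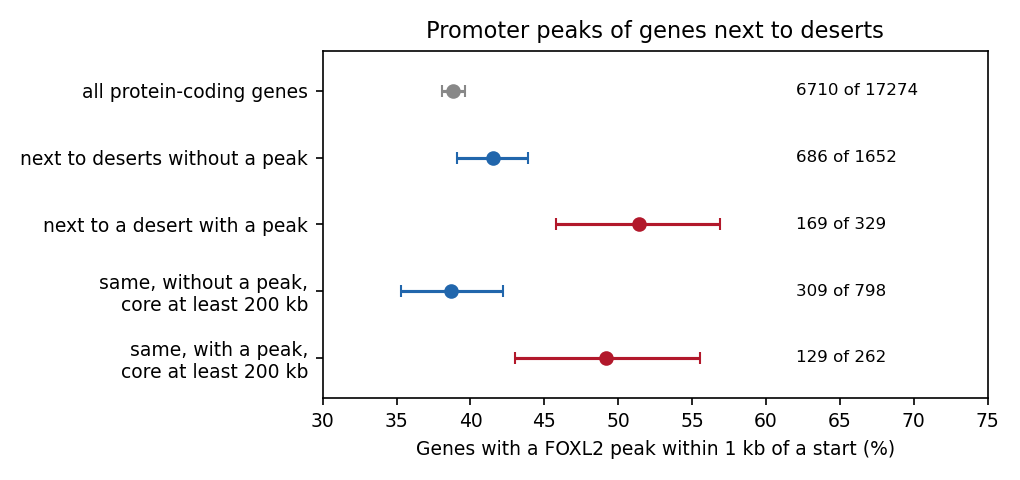
Percentage of genes with a FOXL2 peak within 1 kb of a listed start (horizontal axis, starting at 30%), with exact 95% binomial intervals and counts, for all genes, genes next to deserts without a desert peak (blue) and with one (red). The red points lie at 51.4 and 49.2%, the blue points at 41.5 and 38.7%.

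The promoter bases that lay inside a FOXL2 peak are shown for 4 of these genes, as the part before a listed start (RefSeq, GRCm38.p6). Adamts9, a secreted protease gene, and Lyplal1 flank deserts with 3 and 4 desert peaks, Ctnnb1 encodes the WNT effector beta-catenin, and Cited2 is a cofactor gene of the early gonad. Their promoter peaks had centres 160, 88, 69 and 152 bp from the start.
Adamts9 (chr6:92943545-92943784, minus strand): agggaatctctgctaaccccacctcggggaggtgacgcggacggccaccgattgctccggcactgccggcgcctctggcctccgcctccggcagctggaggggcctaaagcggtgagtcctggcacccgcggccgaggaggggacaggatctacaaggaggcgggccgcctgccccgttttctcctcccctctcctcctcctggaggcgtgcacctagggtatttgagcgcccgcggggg
Lyplal1 (chr1:186117311-186117372, minus strand): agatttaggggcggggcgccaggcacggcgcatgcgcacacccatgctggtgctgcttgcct
Ctnnb1 (chr9:120933320-120933399, plus strand): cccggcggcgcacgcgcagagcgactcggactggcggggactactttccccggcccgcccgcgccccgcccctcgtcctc
Cited2 (chr10:17722978-17723226, plus strand): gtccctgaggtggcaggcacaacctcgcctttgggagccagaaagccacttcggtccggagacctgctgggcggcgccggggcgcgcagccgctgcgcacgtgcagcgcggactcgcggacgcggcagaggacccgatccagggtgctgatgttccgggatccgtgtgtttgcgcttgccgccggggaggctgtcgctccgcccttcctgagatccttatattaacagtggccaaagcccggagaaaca

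These stretches had GC contents of 70.0, 67.7, 80.0 and 66.7%. None held the forkhead motifs TGTTTAC or TATTTAC or the FOXL2 element GTCAAGG on either strand, which says only that these letters are not in these windows. Among 112 promoter windows of 300 bases that overlapped a peak and belonged to genes next to occupied deserts, TGTTTAC was in 1.79%, TATTTAC in 1.79% and GTCAAGG in 3.57%. Among all 4732 listed promoter windows that overlapped a peak the shares were 3.42, 1.54 and 2.60%, and in all 21045 listed protein-coding promoter windows 3.03, 2.62 and 3.12%. The shares of the 112 windows rest on 2, 2 and 4 windows. The sequence of the desert peaks themselves was not analysed here.

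The gene lists of gonadal cell types and of regulators were compared with deserts gene by gene, a gene being counted where a desert next to it held a desert peak. Of the 2576 protein-coding genes next to a desert, 425 were counted (16.5%), and each desert can count for both of its genes. For deserts with a core of at least 200 kb the figure was 334 of 1379 (24.2%). Lists were not tested, so the counts are set beside these shares as a description, and most lists have few genes next to a desert.

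In the pregranulosa list 5 of 13 genes next to a desert were counted (38.5%). They were the homeobox gene Irx5, with a peak at 132.4 kb in the desert it shares with Irx6, the WNT pathway genes Lef1 (163.9 kb), Ctnnb1 (242.0 kb) and Fzd1 (427.9 kb), and Bmp2 (363.1 kb), a growth factor gene. The Irx5 peak lay at chr8:92493720-92494019. Lef1, Ctnnb1 and Fzd1, the 3 of them with a listed start, each also had a promoter peak, 398, 69 and 434 bp from a start. The desert peaks counted for Ctnnb1 and Fzd1 lay nearer to Rpl14 (116.7 kb) and Mterf1b (128.3 kb). In the early gonad list 4 of 11 were counted (36.4%), among them Cited2 (147.0 kb), the GATA cofactor gene Zfpm2 (178.9 kb) and Gadd45g (199.6 kb), a gene needed for testis determination.

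In the Sertoli list 6 of 9 genes were counted (66.7%), and 4 of 6 with larger cores. Inhbb, an inhibin and activin subunit gene, had a peak at 106.5 kb in the desert it shares with the hedgehog effector gene Gli2. Cyp26b1, which breaks down retinoic acid, had a peak at 185.6 kb and the growth factor gene Gdnf at 278.5 kb. Cbln4 had a peak at 301.6 kb and the FGF9 receptor gene Fgfr2 at 388.0 kb. The peaks counted for Cyp26b1, Gdnf and Fgfr2 lay nearer to Dysf (174.8 kb), Egflam (132.8 kb) and Wdr11 (138.8 kb). The desert on one side of Sox9, the main regulator of Sertoli cells, held a peak at chr11:111944507-111944806, 837.6 kb from Sox9 and 218.4 kb from Gm11677, a predicted gene at its other end. None of the 5 counted Sertoli genes with a listed start had a peak within 1 kb of it, the nearest being that of Fgfr2 at 1017 bp. The share was 51.4% over all genes next to an occupied desert and 38.8% over all genes, and counts over so few genes are not read as a difference between the lists.

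Later granulosa genes were counted in 3 of 12 cases (25%), which were Inhbb, the hyaluronan synthase gene Has2 (618.6 kb) and the activin subunit gene Inhba (646.8 kb). The peaks counted for Has2 and Inhba lay nearer to Sntb1 (139.7 kb) and Sugct (179.0 kb). Of stroma and steroid-producing cell genes 4 of 15 were counted (26.7%), among them Hes1 with 2 peaks, Maf with 1 on each side, and Dcn. Germ cell genes next to a desert were few, and 3 of 5 were counted, namely Dazl (100.2 kb), Kit (158.0 kb) and Prdm1 (169.7 kb). The Kit peak lay between Kit and Kdr, 118.1 kb from Kdr, the endothelial receptor gene and the 1 counted of 5 endothelial and blood genes (0 of 3 with larger cores). No housekeeping gene of the list lay next to a desert, and of the olfactory and vomeronasal receptors 1 of 26 was counted, Olfr1324 beside Firre. With larger cores, later granulosa genes were counted in 2 of 7 cases and stroma and steroid-producing cell genes in 3 of 8. For germ cell genes the count was 1 of 1.

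Among regulators, Sox genes were counted in 4 of 9 cases (44.4%), which were Sox4 with peaks on both sides (nearest 105.5 kb), Sox6 (253.6 kb), Sox11 (272.8 kb) and Sox9. Developmental transcription factors outside the homeobox, Sox and forkhead lists were counted in 24 of 74 cases (32.4%), and in 18 of 52 (34.6%) with larger cores. The first by number of peaks were Myc, Klf4, Id2, Sall3, Sall1, Klf12, Hes1, Maf and Tbx3. Next came Hmga2 (121.2 kb), Mycn (125.8 kb) and Ets2 (134.3 kb), each of these 3 with a promoter peak as well. Klf4, Id2, Sall1 and Klf12 had no peak within 1 kb of a listed start, and the others named had no listed start. Over all genes next to an occupied desert, 51.4% had a promoter peak. Peaks are counted over the whole desert, so some of those for Klf4, Sall3 and Tbx3 lay nearer to Actl7b, Galr1 and Med13l. The same held for some of those for Myc (nearer to A1bg or Gsdmc), Hes1 (Opa1), Maf (Wwox) and Klf12 (Prr30). The peak counted for Ets2 lay nearer to Psmg1 (124.6 kb). Receptor genes of signalling pathways were counted in 8 of 22 cases (36.4%), including Acvr2a (2 peaks, nearest 235.2 kb), Egfr (139.7 kb), Robo1 and Robo2. Shares nearer to the 16.5% of all such genes were found for homeobox genes (11 of 56, 19.6%), secreted signals and antagonists (11 of 53, 20.8%), forkhead genes (3 of 14, 21.4%) and neuronal adhesion and synapse genes (20 of 92, 21.7%). With larger cores, homeobox (8 of 36, 22.2%), forkhead (1 of 5, 20.0%) and neuronal genes (18 of 78, 23.1%) lay below the 24.2% of all such genes. Secreted signals (7 of 27, 25.9%), receptors (5 of 12, 41.7%) and Sox genes (4 of 7, 57.1%) lay above it. The homeobox genes included Zfhx3 (144.1 kb), Pou3f1 (379.7 kb) and Zeb2 (1868.6 kb) with 2 peaks each, and Meis1 and Isl1. The peaks counted for Zeb2 are those counted for Acvr2a, which was the nearer gene. Genes counted in the list of secreted signals included Ntf3 (227.5 kb), the BMP modulator gene Bmper (136.7 kb), Cxcl12 and Bmp4. That list also held the Notch ligand gene Dll1 (159.2 kb). Forkhead genes were Foxd1 (148.2 kb), Foxn2 (184.4 kb) and Foxp1 (457.7 kb). The desert peaks of Egfr, Robo1, Pou3f1, Isl1, Ntf3, Dll1, Bmp4, Foxd1, Foxn2 and Foxp1 lay nearer to the gene at the other edge. So did the farther of the peaks counted for Zfhx3. Foxl2 itself was not next to a desert.

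**Figure D5:**
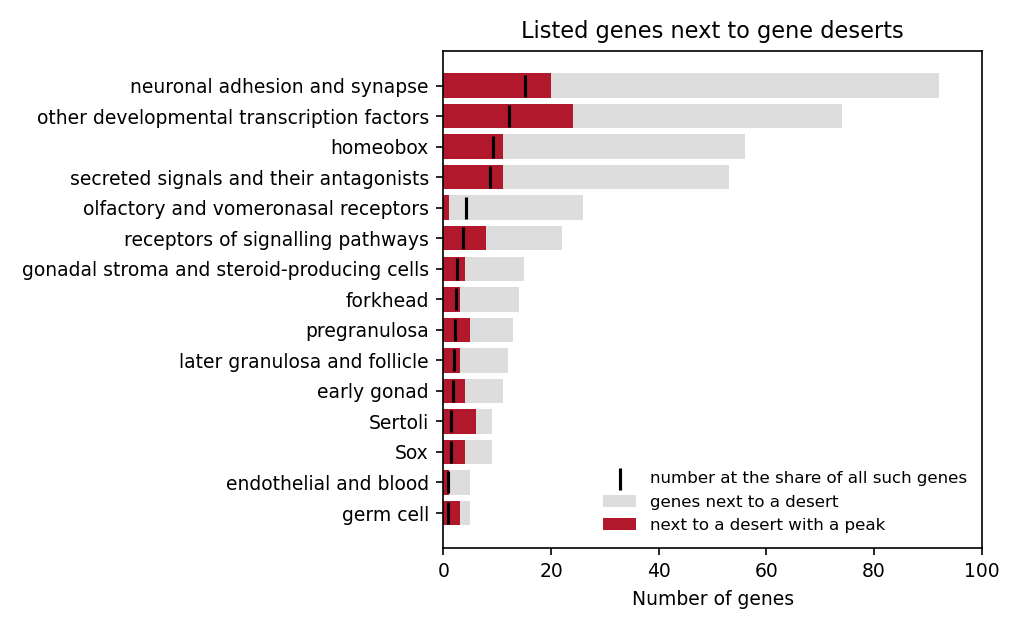
Number of genes of each list next to a desert (grey bars) and next to a desert with a FOXL2 peak (red bars), with the number that the 16.5% of all such genes would give as a black mark. Red bars pass the mark by most genes for developmental transcription factors (24 of 74) and lie below it for olfactory and vomeronasal receptors (1 of 26).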

How the data were processed

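FOXL2 ChIP-seq of E14.5 CD1 ovaries was analysed from 1 deposited list of peak positions on mm10 for the 2 ChIP samples, grouped by title. Per the submitters' processing notes, Bowtie 1.2, Picard 1.110, bedtools 2.24.0 and HOMER 4.9 were used. What each did, the peak threshold, and how replicates and inputs were used were not given in the sources used here. Genes came from a RefSeq table of GRCm38.p6, the assembly of mm10 (21521 protein-coding and 12607 lncRNA genes). From it, 345 gene rows on other scaffolds were left out because their coordinates are not those of the chromosome. The peak centre was used, and the 4 peaks elsewhere than chromosomes 1 to 19 and X were not analysed. Counts were made with Python 3.11.15, pandas 2.3.3 and scipy 1.17.1, and the classification was tested on simulated data. Intervals are exact binomial or Poisson intervals at 95%. The desert rule, gene lists and tests were chosen with earlier results of these data known. Named genes flank the 15 deserts with the most peaks, the 10 farthest peaks, runs of at least 3 and the 10 closest pairs, or are in the lists (up to 12 a list) or are noncoding genes with at least 2 desert peaks. Genes beside microRNAs and genes with desert peaks on both sides were named after their values were seen. The motif search planned in peaks was replaced by a search of RefSeq promoters. Alternatives were other distances, borders, peak edges and run spacings. Some listed genes are counted but not reported here by name.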

Additional observations from a re-analysis of the deposited data

How the results depend on the processing

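The median distance, the density, the number of occupied deserts and the number of peaks follow from the 100 kb rule. Over 50 kb from genes there were 479 peaks in 364 deserts, at a median of 118 kb and 0.532 per Mb, with 83 in runs. Over 200 kb there were 113 in 91 deserts, at a median of 336 kb and 0.231 per Mb, with 6 in runs and 18.6% in noncoding genes. With genes of all kinds as borders 38 peaks remained in 38 deserts, at a median of 149 kb from the nearest gene and 0.194 per Mb, with 0 in runs, and none can lie inside a noncoding gene by construction. Over 10 kb from lncRNA borders the density was 0.344 per Mb, 27 peaks were in runs and 18.9% lay in noncoding genes. Runs of peaks at most 25 kb apart held 26 peaks. Leaving out the lncRNA rule or predicted genes, or using peak edges, kept every count within 1.5 times. Of deserts next to listed genes 20.7% were occupied (86 of 416), beside 14.5% of all deserts. With cores of at least 200 kb the share was 23.9% (64 of 268, interval 18.9 to 29.4%). That interval holds the 22.0% (173 of 786) of all deserts with such cores. No paired analysis was possible because the list holds no value per replicate, and leaving out a replicate or a stricter peak threshold was not possible for the same reason. The planned search of motifs in the peaks and in their central bases was not run. Without scores, weak and strong peaks cannot be told apart, and binding under the unknown threshold would not be listed.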

Other observations

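Desert peaks lay on both sides of 16 genes. Ankrd50 had the most, with 6 peaks, 5 toward Gm5148 and 1 toward the atypical cadherin gene Fat4, and Fat4 itself had 1 peak on each side. Myc and Tbl1xr1 had 5 each, and Pik3r1, a regulatory subunit gene of PI3 kinase, had 4, the nearest 215.7 kb away. Med13l, a Mediator gene, had 3, and Adgrl2, Klf12, Maf, Sox4, Tlr4 and Xylt1 were among those with 2. The nearest peaks on either side of Med13l were 135.0 and 164.5 kb away, and those of Sox4 105.5 and 190.8 kb.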
